A study of Mus musculus with 15 samples.

Results

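The arrays described here are the 4 Affymetrix mouse exon arrays of 3134 cells before and after 2 h of dexamethasone, out of 15 arrays in the whole series. They were chosen by their titles, 2 arrays titled 2 h of dexamethasone and 2 titled 0 h control, and paired by run: the lower serial number in the titles of each group was taken as run 1 and the higher as run 2. The 3134 line is an established mouse mammary line made by transforming C127 cells, which came from a mammary adenocarcinoma of the RIII strain. Its 2 h cells received 100 nM dexamethasone, a synthetic glucocorticoid, and its 0 h cells are described both as untreated and as vehicle treated. Further groups used for comparison are 3134 cells at 4 h and 8 h (2 arrays each) and AtT-20 cells, a pituitary corticotroph line, at 2 h and 0 h (2 arrays each). All groups, the 0 h controls included, had been kept for 48 h in medium with 10% serum stripped of steroids with charcoal and dextran. No array held cells kept for 2 h without the hormone, so the hormone and the time in culture cannot be told apart. Whether the arrays of 1 group came from separate cultures is not given in the labels. The p-values therefore cover the spread among these arrays alone, and that spread may be technical.

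Glucocorticoids cross the cell membrane and bind the glucocorticoid receptor, a transcription factor encoded by Nr3c1 that is held by chaperones in the cytoplasm until hormone arrives. The receptor then enters the nucleus, binds DNA as a dimer at inverted repeats of a short element and raises transcription of nearby genes. It also lowers the output of inflammatory genes that are driven by NF-kB and AP-1. Genes that change within the first hours include direct targets of the receptor together with genes downstream of them, and a level of total RNA does not separate these.

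A level is given below as log2 intensity, the median over the probesets of a gene after all arrays had been brought to one distribution, and a change is the 2 h level minus the 0 h level, followed after ± by its standard error. Of 15025 genes with a level, 9919 reached log2 6.59 in at least 1 of the 8 groups of the series and were tested with limma, and a gene passed at an adjusted p under 0.05. The number of arrays limits the precision, and the median standard error of a change was 0.153. Marker genes were set against the label. The epithelial genes Epcam, Cdh1, Krt18 and Krt19 lay below log2 6.59 at 0 h, and 4 of 17 epithelial markers reached it (Krt8, Krt14, Gata3 and Esr1). Of 17 mesenchymal markers, 14 reached it, with Vim at 13.24 and 13.25 at 2 h, against 13.21 and 13.23 at 0 h. The mean level of the epithelial list was 5.44 and 5.37 at 2 h, against 5.51 and 5.39 at 0 h, and that of the mesenchymal list was 8.89 and 8.93 at 2 h, against 8.84 and 9.01 at 0 h. The label mammary is therefore kept here as the origin of the line, not as an epithelial expression pattern. None of 8 corticotroph markers, 2 of 11 immune markers (Cd68 and Cd14) and 2 of 9 endothelial markers (Cdh5 and Flt1) reached the threshold in 3134 cells at 0 h. In bulk RNA, fewer cells of a type and less RNA per cell cannot be told apart.

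At 2 h of dexamethasone 194 genes (1.96% of those tested) had risen and 104 (1.05%) had fallen, relative to 0 h. The median change was 1.03 among the higher genes and -0.81 among the lower genes, against -0.02 over all genes tested. Among the higher genes, 22 had changed more than 4-fold and 102 more than 2-fold, and among the lower genes 4 and 32 had. Of the higher genes, 38 were below log2 6.59 at 0 h, and 22 of the lower genes were below it at 2 h, where background limits the measured size of a change. The count depended on each array: it was 156 without the 2 h array of run 1, 159 without that of run 2, 155 without the 0 h array of run 1 and 167 without that of run 2. Without the run as a block it was 122, and 36 of the 93 named genes called at 2 h did not pass. Of the 15 largest falls these were Cxcl3, Gas1 and Fosl2, and of the 15 largest rises none. Every call on the lists of NF-kB, EGF receptor, matrix, cholesterol and receptor cofactor genes was lost without it.

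The DNA element bound by the receptor was looked for in the promoters of these genes, as background to the values that follow. The RefSeq windows of build GRCm38.p6, 250 bases before to 50 bases after each start, were searched on both strands for the 13-base glucocorticoid receptor element, an inverted repeat around 3 free bases. It was found in 7 of the 162 higher genes with a window (4.32%), in none of the 76 lower genes with a window and in 0.384% of all 8078 tested genes with a window. Over all 32851 windows of the table the share was 0.475%. Of the 31 tested genes that hold it, 7 were higher at 2 h and none lower, and the median change of the 31 genes was 0.09. The stretches of those 7 genes are shown because their levels rose, with the 13 bases of the match in capitals and 25 bases on either side. All are written 5′ to 3′ on the strand of the gene.
Sgk1, chr10:21993677-21993739, plus strand: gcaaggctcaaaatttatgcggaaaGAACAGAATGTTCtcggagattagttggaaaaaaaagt
Slc10a6, chr5:103629529-103629591, minus strand: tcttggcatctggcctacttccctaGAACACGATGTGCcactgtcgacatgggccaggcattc
Amy1, chr3:113577929-113577991, minus strand: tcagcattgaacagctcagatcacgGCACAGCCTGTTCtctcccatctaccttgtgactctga
Fam107a, chr14:8309860-8309922, minus strand: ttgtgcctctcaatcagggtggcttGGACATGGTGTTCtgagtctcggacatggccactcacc
Suox, chr10:128673927-128673989, minus strand: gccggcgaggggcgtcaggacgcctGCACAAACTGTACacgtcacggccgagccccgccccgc
Mt1, chr8:94178970-94179032, plus strand: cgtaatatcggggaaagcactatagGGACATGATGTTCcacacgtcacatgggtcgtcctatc
Map3k6, chr4:133240612-133240674, plus strand: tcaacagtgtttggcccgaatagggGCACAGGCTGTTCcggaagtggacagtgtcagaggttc
The match began 188 bases before the start in Sgk1 (in 1 of its 6 windows), 163 in Slc10a6, 216 in Amy1, 118 in Fam107a, 46 in Suox, 94 in Mt1 and 181 in Map3k6. A match is a description of letters, and no match in a window says only that the element is not in that window.

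Among the 7 genes, the serum and glucocorticoid regulated kinase Sgk1 had levels of 10.85 and 10.54 at 2 h, against 7.99 and 8.34 at 0 h (change 2.53 ± 0.176, adjusted p = 3.81e-06). Slc10a6, a carrier of sulfated steroids, had 6.45 and 7.14 at 2 h, against 4.39 and 4.69 at 0 h (change 2.26 ± 0.173, adjusted p = 8.3e-06). Both 0 h arrays of Slc10a6 and its 2 h array of run 1 lay below the threshold level, so its change is measured from background. Its 12 probesets had a smaller median change of 1.48. The metallothionein gene Mt1, whose protein binds zinc, was well above the threshold at both times, at 12.88 and 12.49 at 2 h, against 11.37 and 10.67 at 0 h (change 1.66 ± 0.172, adjusted p = 0.00011). Without the run as a block Mt1 did not pass (adjusted p = 0.091). Amy1, Fam107a, Suox and Map3k6 are named only because they hold the match. The changes were 2.25 for Amy1, 2.00 for Fam107a, 1.96 for the sulfite oxidase gene Suox and 1.10 for the kinase gene Map3k6. In all 7 genes both 2 h arrays lay above both 0 h arrays. This held for 192 of the 194 higher genes and for 14.2% of all genes tested. Amy1 had 6.91 and 6.32 at 2 h, against 4.47 and 4.25 at 0 h, so its change is measured from background. Its run 2 array at 2 h lay below the threshold as well. Amy1 belongs to a family of near-identical amylase genes that the probes may not tell apart. The 24 further genes with the match did not pass.

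The 15 genes with the largest rises were of mixed function. The acute phase glycoprotein gene Orm1, at the top, had levels of 10.37 and 9.83 at 2 h, against 6.71 and 6.15 at 0 h, a 12.7-fold rise (change 3.67 ± 0.219, adjusted p = 1e-06). Its neighbour Orm2 had 9.76 and 9.99 at 2 h, against 6.51 and 6.69 at 0 h (change 3.28 ± 0.247, adjusted p = 7.57e-06). In both genes 1 of the 0 h arrays lay below the threshold, so the size of the change is limited by background. These genes are near-identical copies, and the probes may not tell them apart. Lcn2, which encodes a protein that captures bacterial iron carriers, had 11.24 and 11.00 at 2 h, against 7.61 and 8.06 at 0 h (change 3.29 ± 0.252, adjusted p = 8.3e-06). The metallothionein Mt2 had 11.56 and 10.60 at 2 h, against 7.84 and 7.16 at 0 h (change 3.58 ± 0.18, adjusted p = 2.67e-07). In these 4 genes the arrays of the groups did not overlap, and the distance between groups was several times that between runs. Both 2 h arrays lay above both 0 h arrays for 14.2% of all genes tested. Pdk4, a kinase that shuts down pyruvate dehydrogenase and spares glucose, had 9.65 and 9.55 at 2 h, against 6.35 and 6.62 at 0 h (change 3.12 ± 0.138, adjusted p = 2.56e-07). The run 1 array at 0 h lay below the threshold, and the 2 h arrays were 0.0997 apart.

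Spsb1, an adaptor of a ubiquitin ligase complex, had 10.78 and 9.69 at 2 h, against 7.32 and 7.11 at 0 h (change 3.02 ± 0.24, adjusted p = 1.18e-05), with the 2 h arrays 1.1 apart. The phosphatase gene Dusp1, which switches off MAP kinases, had 12.07 and 12.24 at 2 h, against 9.00 and 9.34 at 0 h (change 2.98 ± 0.175, adjusted p = 8.87e-07). Rgs2, which speeds the shutdown of G protein signals, had 9.89 and 9.32 at 2 h, against 6.89 and 6.53 at 0 h (change 2.90 ± 0.148, adjusted p = 2.78e-07). Dusp1 and Rgs2 thus encode proteins that end signals. For Rgs2 the 0 h array of run 2 lay below the threshold, so background limits the measured size of its rise. The mitochondrial nucleotide carrier gene Slc25a33 had 10.08 and 9.51 at 2 h, against 7.12 and 6.93 at 0 h (change 2.77 ± 0.136, adjusted p = 2.56e-07). The arrestin-domain gene Arrdc2 had 10.15 and 10.08 at 2 h, against 7.42 and 7.32 at 0 h (change 2.75 ± 0.159, adjusted p = 8.6e-07). The leucine zipper repressor gene Nfil3 had 11.28 and 11.40 at 2 h, against 8.56 and 8.70 at 0 h (change 2.72 ± 0.132, adjusted p = 2.56e-07). In each of these genes the pairs of arrays differed by less within a group than between groups.

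Per1, Fkbp5 and Tsc22d3, which are widely used as readouts of glucocorticoid exposure, closed the group together with Sgk1. The clock repressor gene Per1 had 9.93 and 10.08 at 2 h, against 7.22 and 7.41 at 0 h (change 2.69 ± 0.131, adjusted p = 2.56e-07). Fkbp5, a chaperone partner that lowers hormone binding by the receptor, had 12.37 and 12.25 at 2 h, against 9.68 and 9.62 at 0 h (change 2.66 ± 0.139, adjusted p = 3.04e-07). Tsc22d3, which encodes the leucine zipper protein GILZ, had 9.55 and 10.19 at 2 h, against 7.37 and 7.36 at 0 h (change 2.50 ± 0.198, adjusted p = 1.1e-05). The 0 h arrays of Tsc22d3 were nearly equal and its 2 h arrays 0.646 apart. All 15 genes passed in every fit without 1 of the 4 arrays.

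**Figure D1:**
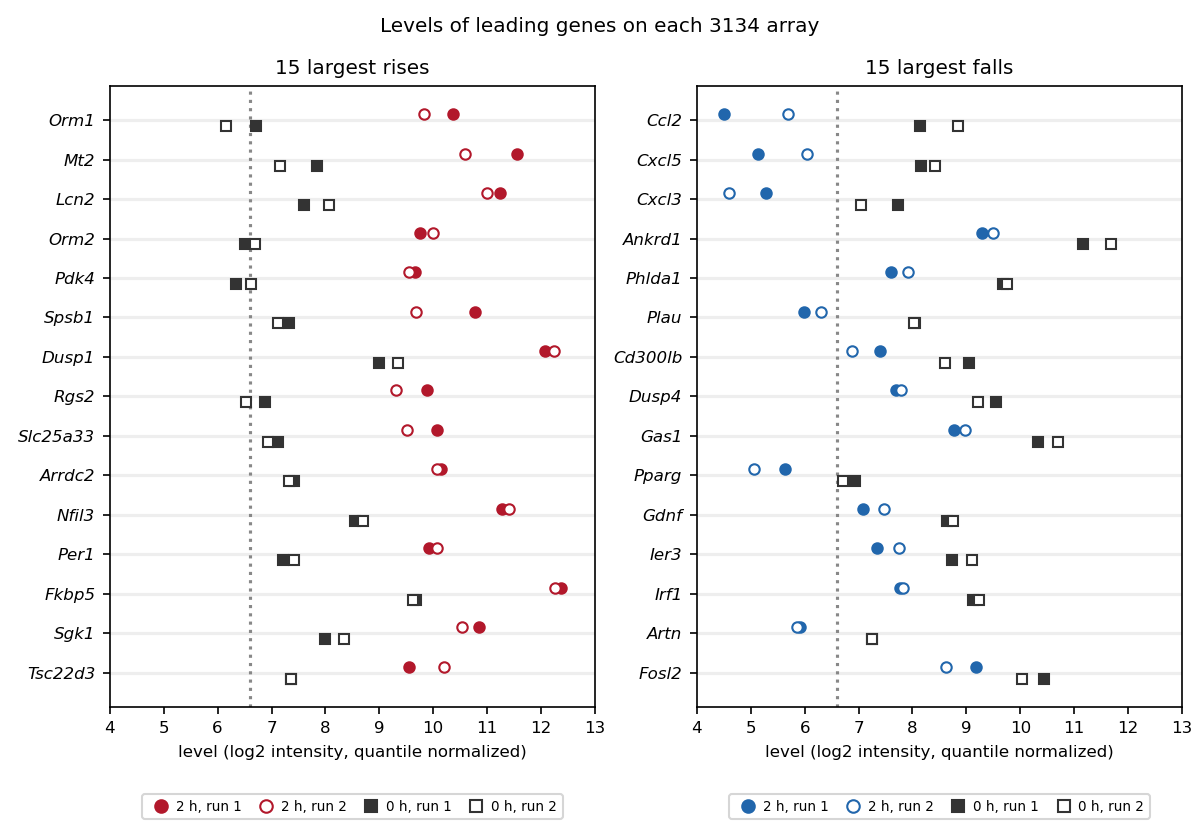
Log2 intensity of the 15 largest rises (left) and the 15 largest falls (right) on each of the 4 arrays, with circles for 2 h, squares for 0 h, filled symbols for run 1 and open symbols for run 2, and the threshold level of 6.59 as a dotted line. In all 30 genes the 2 h symbols lie wholly to one side of the 0 h symbols, as for 30.5% of all genes tested. Orm1, Orm2, Pdk4 and Rgs2 start near the threshold while Ccl2, Cxcl5, Cxcl3, Plau, Pparg and Artn end below it.

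The 2 runs gave the same picture for the genes that passed. All 298 genes changed in the same direction in both runs, and for 293 of them both 2 h arrays lay beyond both 0 h arrays (192 higher and 101 lower), as they did for 30.5% of all genes tested (14.2% above and 16.3% below). Across the 298 genes the change in run 1 and the change in run 2 had a correlation of 0.97, and across all genes tested it was 0.569, with 58.3% of genes changing in the same direction. These correlations are across genes, which are not independent replicates, and the 298 genes were chosen on the same 4 arrays. The leading genes were chosen by the median of their probesets, so the shares of probesets are a description. For the 15 largest rises, 167 of 180 probesets (92.8%) were higher in both runs, and for the 15 largest falls, 123 of 134 (91.8%) were lower in both. Every one of the 33 probesets of Per1 and the 14 of Fkbp5 was higher in both runs. Tsc22d3 had 10 of 12 probesets higher and 1 lower in both runs. Sgk1 had 15 of 23 higher and 2 lower, and its change was 1.18 with the mean over probesets in place of the median.

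**Figure D2:**
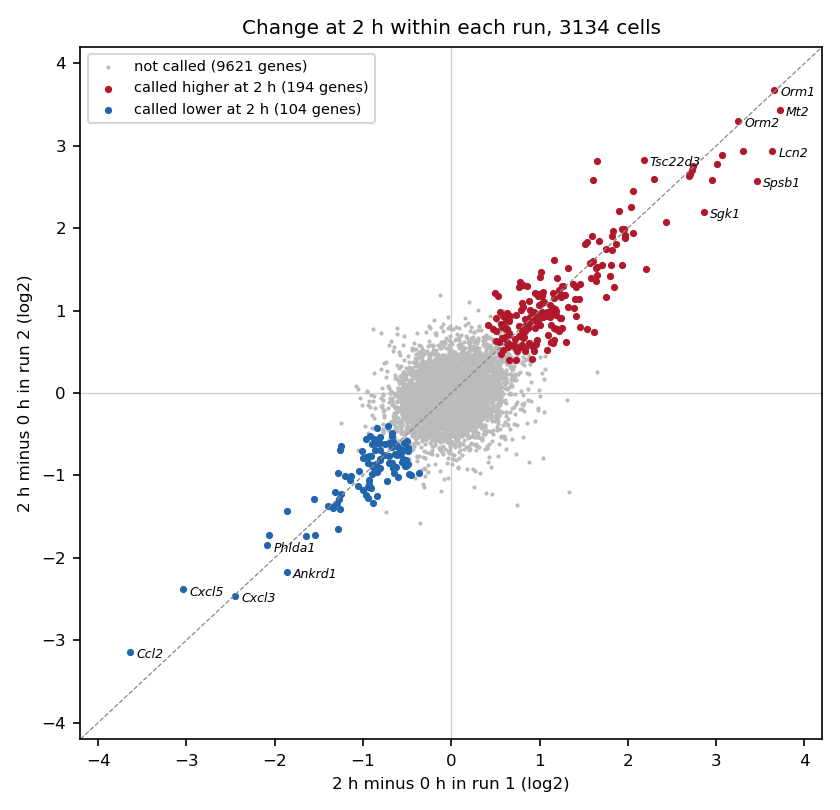
Change at 2 h against 0 h (log2) in run 1 (horizontal) and in run 2 (vertical) for the 9919 genes tested, with the 194 genes called higher in red, the 104 called lower in blue and the others in grey, and some of the largest named. The called genes lie along the line of equal change in both runs, with a correlation of 0.97, and no called gene lies in a quadrant of opposite signs.

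The counts of the lists that follow stand against 1.96% higher and 1.05% lower among all genes tested. Genes long known as glucocorticoid targets in other cells rose in large part. Of 36 genes on this list 32 were tested, 23 were higher at 2 h and none lower, and their median change was 1.59, against -0.02 over all genes. Leaving out 1 array gave 19 to 22 higher genes. The list was drawn up from general knowledge with earlier results of these data known, and 8 of the tested members were below the threshold at 0 h, so that some could enter the test only through a rise here or a level in another group. Besides the genes above, Glul, which makes glutamine, had 11.37 and 11.44 at 2 h, against 9.41 and 9.44 at 0 h (change 1.98 ± 0.121, adjusted p = 1.18e-06). The mTOR inhibitor gene Ddit4 had 11.23 and 11.23 at 2 h, against 9.33 and 9.01 at 0 h (change 2.06 ± 0.139, adjusted p = 3.11e-06). Tns1, a focal adhesion protein, had 9.68 and 9.19 at 2 h, against 7.97 and 7.64 at 0 h (change 1.63 ± 0.183, adjusted p = 0.00021). In all 3 both 2 h arrays lay above both 0 h arrays, as they did for 14.2% of all genes tested. Among the members that did not pass was Rasd1, a small G protein gene, with 5.39 and 5.83 at 2 h, against 4.69 and 5.43 at 0 h (adjusted p = 0.0559). All 4 arrays of Rasd1 lay below the threshold, so the lack of a call says little.

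Acute phase and metal-handling genes moved through few members. Of 26 acute phase and secreted defence genes 9 were tested, and 4 were higher at 2 h (Orm1, Lcn2, Orm2 and Lbp) and none lower, with a median of 0.38. Lbp, which hands bacterial lipopolysaccharide to its receptors, had 7.03 and 6.92 at 2 h, against 4.83 and 5.41 at 0 h (change 1.86 ± 0.189, adjusted p = 9.75e-05), and its 0 h arrays were far below the threshold. The serine protease inhibitor gene Serpina3n had 6.37 and 6.02 at 2 h, against 5.86 and 5.78 at 0 h, and did not pass (adjusted p = 0.793). All 4 arrays of Serpina3n lay below the threshold, so the lack of a call says little. Of 15 tested metallothionein and zinc transport genes 3 were higher and none lower, with a median of 0.07. Slc39a14, a zinc and iron importer, had 11.09 and 11.31 at 2 h, against 9.27 and 9.40 at 0 h (change 1.87 ± 0.134, adjusted p = 4.72e-06), and the others were Mt2 and Mt1. For comparison, the core of the metal response element, TGCGCNC, stood in at least 1 window of 30.2% of the higher genes with a window, of 25% of such lower genes and of 31.6% of all such tested genes.

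Of 28 tested genes of glucose and lipid fuel use 4 were higher and 1 lower, with a median of 0.02. Beside Pdk4, the glycolytic regulator gene Pfkfb3, whose product raises the main activator of phosphofructokinase, had 8.48 and 8.72 at 2 h, against 6.18 and 6.13 at 0 h (change 2.45 ± 0.204, adjusted p = 1.74e-05). The fatty acid binding protein gene Fabp4 had 7.68 and 8.15 at 2 h, against 6.08 and 6.25 at 0 h (change 1.75 ± 0.221, adjusted p = 0.000495). Both 0 h arrays of Pfkfb3 and of Fabp4 lay below the threshold, so background limits the measured size of these rises. The lipid droplet coat gene Plin4 had 10.17 and 9.93 at 2 h, against 8.94 and 8.75 at 0 h (change 1.20 ± 0.182, adjusted p = 0.00208), and it no longer passed without the 2 h array of run 1 (adjusted p = 0.0522). Pparg, the nuclear receptor of adipocyte formation, went the other way, with 5.64 and 5.06 at 2 h, against 6.93 and 6.71 at 0 h (change -1.47 ± 0.164, adjusted p = 0.00021), below the threshold on both 2 h arrays. Fabp4 and Pparg also stand on the list of 10 adipocyte markers, of which Adipoq and Lep lay below the threshold on all 4 arrays; the mean level of that list was 5.71 and 5.64 at 2 h, against 5.71 and 5.81 at 0 h. Of 22 tested genes of glutamine and amino acid handling, Glul alone passed, and the list had a median of 0.03.

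Of 19 tested genes of mTOR inhibition, FOXO factors and arrestin-domain proteins 6 were higher and 1 lower, with a median of 0.16, and 3 to 5 were higher when 1 array was left out. The sestrin gene Sesn1, whose product senses leucine and inhibits mTOR, had 9.57 and 9.57 at 2 h, against 7.81 and 7.81 at 0 h (change 1.75 ± 0.146, adjusted p = 1.74e-05). The arrays of each group were nearly equal in this gene. The transcription factor gene Foxo3 had 10.87 and 10.95 at 2 h, against 10.07 and 9.94 at 0 h (change 0.90 ± 0.137, adjusted p = 0.00222), and it no longer passed without the 2 h or the 0 h array of run 2 (adjusted p up to 0.0547). Irs1, the adaptor of the insulin receptor, was lower, at 10.38 and 10.11 at 2 h, against 11.28 and 10.97 at 0 h (change -0.88 ± 0.125, adjusted p = 0.00121). Without the run as a block Irs1 did not pass (adjusted p = 0.06). Of 14 tested genes of serum and glucocorticoid kinases and ion transport 3 were higher and none lower, with a median of 0.00: Sgk1, Slc10a6 and Nedd4l, a ubiquitin ligase for sodium channels that Sgk1 phosphorylates (change 0.78 ± 0.135, adjusted p = 0.00556). Nedd4l no longer passed without the 2 h or the 0 h array of run 1 (adjusted p up to 0.136).

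Transcription factor genes split in direction. Of 16 tested genes on the clock list 3 were higher and none lower, and the median was 0.00. Per1, which rose as given above, was counted with the known glucocorticoid targets and is not among the 16. Beside Nfil3, the repressor genes Bhlhe41 (change 0.64 ± 0.127, adjusted p = 0.0134) and Per2 (change 0.63 ± 0.14, adjusted p = 0.0279) passed, although neither did without any 1 of the 4 arrays (adjusted p up to 0.251 and 0.357). Of 15 tested Kruppel-like and C/EBP factor genes 3 were higher and 4 lower, with a median of -0.12. Cebpb, a factor of the acute phase and of adipocyte formation, had 10.52 and 9.92 at 2 h, against 9.20 and 8.87 at 0 h (change 1.19 ± 0.136, adjusted p = 0.000243). Klf15, a regulator of amino acid use, had 7.40 and 7.02 at 2 h, against 5.78 and 6.27 at 0 h (change 1.18 ± 0.223, adjusted p = 0.00996), and its change was 0.68 without the 0 h array of run 1. Both 0 h arrays of Klf15 lay below the threshold, so background limits the measured size of its rise. Klf10, induced by TGF-beta in other cells, was lower, at 6.66 and 6.97 at 2 h, against 7.90 and 7.62 at 0 h (change -0.95 ± 0.158, adjusted p = 0.00425). Klf3 (change -0.78 ± 0.13, adjusted p = 0.00426) and Klf6 (change -0.66 ± 0.128, adjusted p = 0.0119) were lower as well. Without 1 array, Klf15 failed the threshold in 3 of 4 fits (both 2 h arrays and the 0 h array of run 1), Klf6 in all 4, Klf10 in the 2 without an array of run 1 and Klf3 in the 2 without an array of run 2. Cebpb passed in all 4.

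Immediate early genes, which answer growth factors within minutes, gave 1 higher and 3 lower members among 23 tested, with a median of -0.13. The AP-1 subunit gene Fosl2 had 9.18 and 8.63 at 2 h, against 10.44 and 10.04 at 0 h (change -1.34 ± 0.154, adjusted p = 0.000259). Ier3, a stress response gene that NF-kB induces, had 7.34 and 7.74 at 2 h, against 8.73 and 9.11 at 0 h (change -1.38 ± 0.169, adjusted p = 0.000395). Jun had 8.62 and 8.91 at 2 h, against 8.99 and 9.88 at 0 h (change -0.67 ± 0.16, adjusted p = 0.0431). The runs were not equal for Jun, and its change was -0.38 without the 0 h array of run 2, where it did not pass (adjusted p = 0.66), nor did it without either 2 h array. Id2, which blocks helix-loop-helix factors, was higher, at 8.80 and 9.01 at 2 h, against 7.85 and 7.79 at 0 h (change 1.08 ± 0.136, adjusted p = 0.00048). The AP-1 letters TGANTCA stood in at least 1 window of 8.64% of the higher genes with a window, of 6.58% of such lower genes and of 6.03% of all such tested genes.

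Feedback inhibitors of MAP kinase signalling moved in both directions, with 2 higher and 2 lower of 19 tested and a median of -0.14. Dusp1 and Errfi1, an inhibitor of the EGF receptor, were higher; Errfi1 had 10.95 and 11.19 at 2 h, against 9.29 and 8.37 at 0 h (change 2.24 ± 0.23, adjusted p = 0.000106). Dusp4, a phosphatase of the same family in the nucleus, had 7.69 and 7.78 at 2 h, against 9.55 and 9.21 at 0 h (change -1.64 ± 0.146, adjusted p = 2.76e-05). Dusp8 had 6.02 and 6.15 at 2 h, against 7.27 and 7.37 at 0 h (change -1.24 ± 0.154, adjusted p = 0.000433), and ended below the threshold. Of 5 tested members of the EGF receptor family and its ligands, the ligand genes Hbegf (6.38 and 6.93 at 2 h, against 7.32 and 7.99 at 0 h, change -0.99 ± 0.181, adjusted p = 0.00803) and Ereg (change -0.66 ± 0.156, adjusted p = 0.0422) were lower. Without 1 array, Ereg failed in all 4 fits (adjusted p up to 0.395) and Hbegf in the 3 without a 2 h array or without the 0 h array of run 2 (adjusted p up to 0.133). Of 11 tested regulators of G protein signalling, Rgs2 alone passed.

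Chemokine genes had the largest falls. Of 36 chemokine and cytokine genes 13 were tested, 6 were lower at 2 h and none higher, and the median was -0.63. The monocyte attractant gene Ccl2 had 4.50 and 5.70 at 2 h, against 8.14 and 8.84 at 0 h, a 10.5-fold fall as measured (change -3.39 ± 0.503, adjusted p = 0.00183). The 2 h arrays of Ccl2 were 1.19 apart and below the threshold, so background limits the size of the fall, and it did not pass without the 2 h array of run 1 (adjusted p = 0.0519). Cxcl5, which attracts neutrophils, had 5.13 and 6.04 at 2 h, against 8.17 and 8.42 at 0 h (change -2.71 ± 0.189, adjusted p = 3.81e-06). Cxcl3, of the same family, had 5.28 and 4.59 at 2 h, against 7.72 and 7.05 at 0 h (change -2.45 ± 0.239, adjusted p = 7.02e-05). Both ended below the threshold, so background limits the measured size of the fall. The 6 probesets of Cxcl3 changed by -2.74 to -0.21, with a median of -1.51, which is smaller than the change of the gene value. Cxcl1 had 6.63 and 7.31 at 2 h, against 7.89 and 8.01 at 0 h (change -0.98 ± 0.196, adjusted p = 0.0145), and its change was -0.64 without the 2 h array of run 1. Csf1, the growth factor of macrophages, had 10.13 and 10.24 at 2 h, against 11.03 and 11.40 at 0 h (change -1.03 ± 0.163, adjusted p = 0.00286). Without 1 array, Cxcl1 failed in 3 of 4 fits (all but that without the 2 h array of run 2) and Csf1 in the 2 without an array of run 2, and the list had 3 or 4 lower genes. Without the run as a block it had 2, and Cxcl3, Cxcl1 and Csf1 did not pass.

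NF-kB drives many of these genes in inflammation, and matches to its 10-base motif in the windows of Cxcl1 and Cxcl3 are shown for that reason. Both strands were searched, and the capitals mark the joined matches, which overlap where both strands match.
Cxcl1, chr5:90891130-90891209, plus strand: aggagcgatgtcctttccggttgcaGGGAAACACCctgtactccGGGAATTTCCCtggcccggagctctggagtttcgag
Cxcl3, chr5:90786003-90786063, plus strand: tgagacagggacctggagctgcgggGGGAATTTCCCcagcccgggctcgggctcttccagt
The first match began 90 bases before the start in Cxcl1 and 73 in Cxcl3. The motif was found in at least 1 window of 10.5% of the lower genes with a window, of 9.26% of such higher genes and of 8.18% of all such tested genes. The list of NF-kB subunits and inhibitors, on which Zfp36 also stands although it is neither, gave 2 higher and 2 lower of 17 tested, with a median of -0.08. Zfp36, whose protein destroys cytokine mRNAs, had 8.53 and 7.66 at 2 h, against 6.59 and 6.10 at 0 h (change 1.74 ± 0.29, adjusted p = 0.00411), with the 0 h array of run 2 below the threshold. Nfkbia, the gene of the main NF-kB inhibitor, had 11.05 and 10.29 at 2 h, against 9.90 and 9.68 at 0 h (change 0.88 ± 0.182, adjusted p = 0.0177). The related inhibitor gene Nfkbie (change -0.76 ± 0.152, adjusted p = 0.0137) and the subunit gene Rel (change -0.60 ± 0.145, adjusted p = 0.0483) were lower. None of these 4 passed in every fit without 1 array. Zfp36 and Nfkbia failed without either 2 h array or the 0 h array of run 1 (adjusted p up to 0.0866 and 0.332), Nfkbie without the 2 h array of run 1 or either 0 h array (up to 0.28) and Rel without any 1 array (up to 0.449). Irf1, an interferon response factor, had 7.77 and 7.83 at 2 h, against 9.11 and 9.23 at 0 h (change -1.37 ± 0.16, adjusted p = 0.000264). Among 20 tested genes of SOCS, STAT and cytokine receptor signalling, the feedback inhibitor gene Socs3 alone passed (change -0.81 ± 0.137, adjusted p = 0.00467), and it failed without any 1 array (adjusted p up to 0.0836).

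The urokinase gene Plau, whose product makes plasmin at the cell surface, had 5.98 and 6.30 at 2 h, against 8.05 and 8.02 at 0 h (change -1.90 ± 0.181, adjusted p = 5.62e-05), below the threshold on both 2 h arrays. Its receptor gene Plaur had 6.98 and 7.12 at 2 h, against 8.26 and 8.10 at 0 h (change -1.13 ± 0.166, adjusted p = 0.00169), and failed without the 2 h array of run 1 (adjusted p = 0.0519). These were the 2 lower genes among 6 tested of the plasminogen activator system, with none higher and a median of -0.42. Of 15 tested targets of YAP and mechanical load 2 were higher and 5 lower, with a median of -0.18. Ankrd1, a nuclear repeat protein gene induced by stretch, had 9.30 and 9.50 at 2 h, against 11.16 and 11.67 at 0 h (change -2.02 ± 0.269, adjusted p = 0.000821). Phlda1 had 7.59 and 7.91 at 2 h, against 9.68 and 9.76 at 0 h (change -1.97 ± 0.147, adjusted p = 7.04e-06). Its 11 probesets changed by -2.94 to 0.07, with a smaller median of -1.06. The adaptor gene Ajuba had 8.24 and 8.82 at 2 h, against 9.55 and 10.02 at 0 h (change -1.26 ± 0.146, adjusted p = 0.000259). All 3 kept their call in each fit without 1 array, but Ajuba did not pass without the run as a block (adjusted p = 0.0766). Ccn2, which encodes connective tissue growth factor and is a YAP target as well, was higher, at 9.03 and 8.92 at 2 h, against 7.42 and 7.31 at 0 h (change 1.61 ± 0.187, adjusted p = 0.000259). The coagulation starter gene F3 was higher too (change 1.58 ± 0.304, adjusted p = 0.0111), and failed without any 1 array (adjusted p up to 0.185).

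Among 22 tested genes of TGF-beta signalling 1 was higher and 4 lower, with a median of -0.14. The repressor gene Tgif1 was lower, at 9.06 and 9.06 at 2 h, against 10.11 and 10.01 at 0 h (adjusted p = 0.00118). Smad3, which carries the signal to the nucleus, had 8.84 and 9.03 at 2 h, against 9.71 and 9.72 at 0 h (change -0.78 ± 0.138, adjusted p = 0.00625). The inhibitor gene Smad7 (change -0.70 ± 0.134, adjusted p = 0.0111) and the activin subunit gene Inhba (change -0.63 ± 0.137, adjusted p = 0.0244) were lower and the co-receptor gene Tgfbr3 higher (change 0.88 ± 0.191, adjusted p = 0.0245). Tgif1 alone of these passed without each array in turn, but it did not pass without the run as a block. Smad7 alone of these passed without the block. Inhba and Tgfbr3 failed without any 1 array, Smad3 without either 2 h array or the 0 h array of run 1, and Smad7 without the 2 h array of run 2 or either 0 h array, with adjusted p up to 0.217 for Smad7 and 0.163 for Smad3. Of 21 tested matrix genes the basement membrane collagens Col4a1 (change 0.70 ± 0.15, adjusted p = 0.0228) and Col4a2 (change 0.78 ± 0.176, adjusted p = 0.0296) were higher and the protease gene Adamts1 lower (change -0.94 ± 0.172, adjusted p = 0.00803). Both collagens failed without any 1 array (adjusted p up to 0.279 and 0.327) and Adamts1 without all but the 0 h array of run 1 (up to 0.14). The remaining large falls were of mixed function. Gas1, a membrane protein gene linked to growth arrest, had 8.78 and 8.98 at 2 h, against 10.32 and 10.70 at 0 h (change -1.63 ± 0.138, adjusted p = 1.84e-05). Cd300lb, which encodes an immune receptor, had 7.40 and 6.88 at 2 h, against 9.04 and 8.61 at 0 h (change -1.69 ± 0.155, adjusted p = 3.79e-05). The neurotrophic ligand genes Gdnf (7.08 and 7.47 at 2 h, against 8.63 and 8.75 at 0 h) and Artn (5.91 and 5.86 at 2 h, against 7.26 and 7.24 at 0 h) changed by -1.42 and -1.36, and Artn ended below the threshold. The platelet-derived growth factor receptor gene Pdgfrb was the lower member of the mesenchymal list (change -0.76 ± 0.145, adjusted p = 0.0107) and failed without any 1 array (adjusted p up to 0.184).

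Growth arrest genes split, and genes of DNA replication and mitosis gave no call. Of 20 tested growth arrest and cell cycle inhibitor genes 3 were higher and 2 lower, with a median of -0.06. The kinase inhibitor gene Cdkn1a had 11.67 and 11.17 at 2 h, against 9.82 and 9.88 at 0 h (change 1.57 ± 0.163, adjusted p = 0.000113). Gadd45g had 9.62 and 9.67 at 2 h, against 7.82 and 8.25 at 0 h (change 1.61 ± 0.186, adjusted p = 0.000259). Its relative Gadd45a, another stress sensor, had 9.01 and 9.32 at 2 h, against 10.22 and 10.33 at 0 h (change -1.11 ± 0.152, adjusted p = 0.000996), so the family moved both ways. Without the run as a block Gadd45a did not pass (adjusted p = 0.258). The antiproliferative genes Tob2 and Btg1 also diverged. Tob2 was higher (change 1.42 ± 0.171, adjusted p = 0.000342), and Btg1 lower (change -1.10 ± 0.186, adjusted p = 0.00469), with a change of -0.31 that did not pass when the mean over probesets was used. Btg1 also failed without either 2 h array or the 0 h array of run 2 (adjusted p up to 0.0778). None of 28 tested replication and mitosis genes passed, with limma unadjusted p under 0.05 for 4 of them, against 963 of all 9919 genes, and their median was -0.18. Of 19 tested BCL2 family and death genes 2 were higher. Bcl2l1, which encodes the survival protein BCL-XL, had 10.85 and 11.02 at 2 h, against 9.03 and 9.28 at 0 h (change 1.78 ± 0.178, adjusted p = 8.74e-05), and Trp53inp1, a p53 target, rose by 1.06 on the log2 scale (adjusted p = 0.00169).

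The receptor gene Nr3c1 itself was lower, at 9.73 and 9.82 at 2 h, against 10.39 and 10.47 at 0 h (change -0.66 ± 0.139, adjusted p = 0.0191), but it failed without any 1 array (adjusted p up to 0.294). Among the 19 tested genes of the receptor, its chaperones and cofactors, the acetyltransferase gene Ep300 was higher (change 0.64 ± 0.136, adjusted p = 0.0206), failing likewise (up to 0.294), and the list had a median of -0.05. The chaperone gene Hsp90ab1 had 12.45 and 12.68 at 2 h, against 12.75 and 12.82 at 0 h (adjusted p = 0.697). Of 20 tested heat shock and unfolded protein genes 1 was higher and 2 lower, with a median of -0.07. Herpud1, which aids disposal of misfolded proteins, had 11.52 and 11.14 at 2 h, against 10.26 and 9.85 at 0 h (change 1.27 ± 0.13, adjusted p = 9.75e-05). The stress factor gene Ddit3 had 7.30 and 6.91 at 2 h, against 8.24 and 8.05 at 0 h (change -1.04 ± 0.157, adjusted p = 0.00208), and Chac1, which breaks down glutathione, was lower as well (change -0.90 ± 0.161, adjusted p = 0.00698). Chac1 failed without the 2 h array of run 2 or the 0 h array of run 1 (adjusted p up to 0.17). Of 18 tested genes of cholesterol synthesis Insig1 alone passed (change -0.57 ± 0.137, adjusted p = 0.0427), and it failed without any 1 array (adjusted p up to 0.518). None of 14 housekeeping genes and none of the tested epithelial (7), corticotroph (8), immune (2) and endothelial (3) markers passed. For 0 of the 14 and 1 of the 20 limma's unadjusted p was under 0.05, against 963 of all 9919 genes. All 8 corticotroph markers and 3 of the 7 epithelial ones lay below the threshold in 3134 cells at 0 h and were tested through their level elsewhere in the series, so that for them the lack of a call says little. Over all lists, 53 of 487 tested genes were higher and 41 lower, against 1.96% higher and 1.05% lower among all genes tested.

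**Figure D3:**
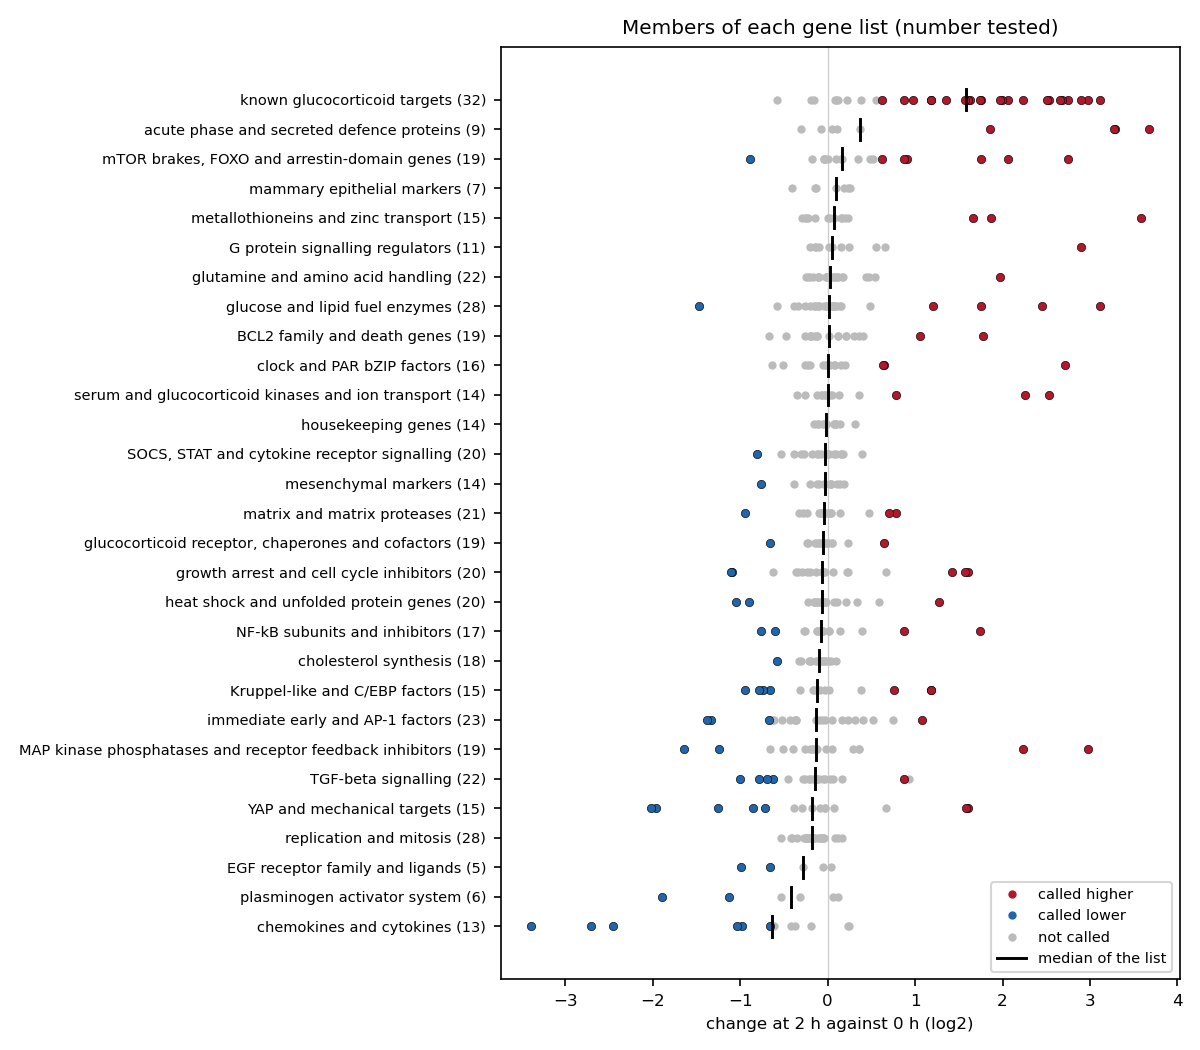
Change at 2 h against 0 h (log2) of every tested member of the gene lists drawn, one line per list with the number tested in brackets, with members called higher in red, called lower in blue and not called in grey, and the median of each list as a black bar. The lists of corticotroph, immune cell, endothelial and adipocyte markers are not drawn. Known glucocorticoid targets have the highest median at 1.59 and chemokines and cytokines the lowest at -0.63, while most medians lie near 0 although single members lie far from it.

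The next question was which of these changes had run their course at 2 h. The later arrays were set against the 2 h arrays, and changes against 0 h are given beside them; all times share the 0 h arrays, and a comparison with 2 h shares the 2 h arrays on which the genes were called. At 4 h against 2 h, 2 genes passed (0.0202% of genes tested), 1 in each direction (0.0101% each). Tns1 went up further (1.45 ± 0.183, SE, adjusted p = 0.0199) and Dlgap2, a scaffold gene of synapses, was lower at 4 h (-1.48 ± 0.17, SE, adjusted p = 0.0151). Tns1 failed without any 1 of the 2 h or 4 h arrays, and Dlgap2 without either 4 h array or the 2 h array of run 1. At 8 h against 2 h, 198 genes passed (2%), 114 higher (1.15%) and 84 lower (0.847%) at 8 h. The split depended on the scaling, with 29 higher and 231 lower on the deposited scale (median over all genes -0.31) and 168 higher and 172 lower with centred arrays. The count was 20 to 128 without 1 array. The largest rises from 2 h to 8 h were in Selenbp1, a selenium binding protein gene (2.48 ± 0.277), Aldh1a1, which makes retinoic acid (1.88 ± 0.192), Tns1 (1.86 ± 0.183), Ctla2b (1.73 ± 0.186) and Angptl7 (1.72 ± 0.198). The largest falls were in the cystine importer gene Slc7a11 (-2.19 ± 0.224), Dlgap2 (-1.73 ± 0.17), the clock repressor gene Nr1d1 (-1.47 ± 0.152), Pfkfb3 (-1.39 ± 0.204) and the RNA polymerase subunit gene Polr2h (-1.33 ± 0.191), with SE after each value. Pfkfb3 and Polr2h failed without the array of run 2 at 2 h or at 8 h.

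Of the 194 genes higher at 2 h, 24 were higher still at 8 h and 17 were lower at 8 h than at 2 h. Of the 104 lower genes, 1 was lower still and 20 were higher at 8 h than at 2 h. Among all genes tested, 1.15% were higher and 0.847% lower at 8 h than at 2 h. Without the run as a block, 9 genes in all passed in this comparison. The median change against 0 h of the 194 genes was 1.03 at 2 h, 1.16 at 4 h and 1.06 at 8 h, and that of the 104 genes was -0.81, -0.73 and -0.57. Pdk4 changed by 3.12, 3.46 and 4.10 against 0 h at 2, 4 and 8 h, and Glul by 1.98, 2.58 and 2.76. Slc10a6 (2.26, 2.84 and 3.63) and Lbp (1.86, 2.77 and 3.38) went the same way, as did the clock gene Per2 (0.63, 1.09 and 1.27). Others turned back. Pfkfb3 changed by 2.45, 2.14 and 1.05. Rgs2 changed by 2.90, 2.59 and 1.75, and Nfil3 by 2.72, 2.26 and 1.90. Cebpb (1.19, 0.56 and 0.57) and Cdkn1a (1.57, 1.05 and 0.81) turned back too, close to the limit (8 h against 2 h, adjusted p = 0.0412 and 0.0368). Among the lower genes, Gas1 changed by -1.63, -1.03 and -0.41, and Irf1 by -1.37, -0.60 and -0.44. The chemokine gene Cxcl5 stood at -2.71, -2.76 and -2.40 (8 h against 2 h, adjusted p = 0.435). Cxcl3 stood at -2.45, -2.90 and -2.54 (8 h against 2 h, adjusted p = 0.889). A return passed in neither gene, but a p that misses the threshold does not show that there was none. Both genes lay below the threshold level on the 2 h arrays, so background limits what these values can show.

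**Figure D4:**
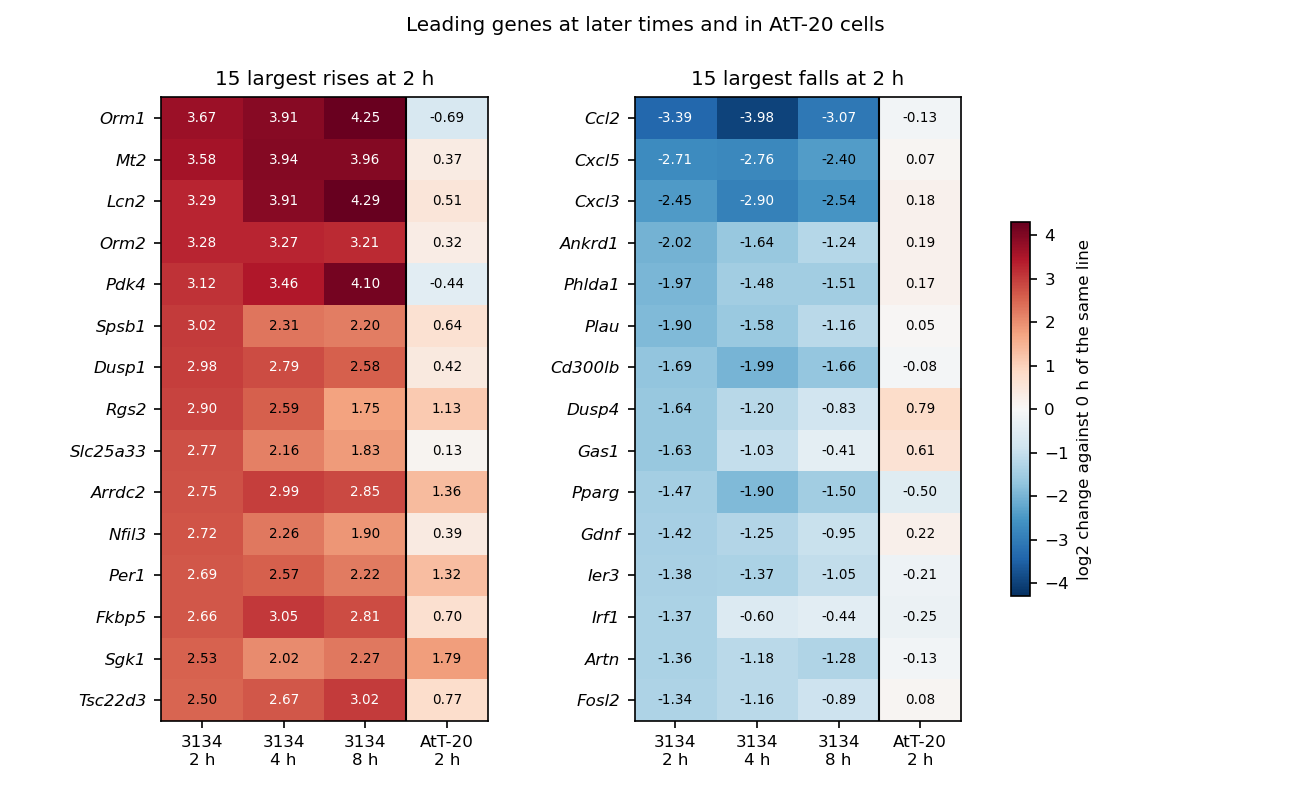
Change against 0 h of the same line (log2, colour and printed value) for the 15 largest rises (left) and 15 largest falls (right) of 3134 cells at 2 h, with columns for 3134 cells at 2, 4 and 8 h and for AtT-20 cells at 2 h. Orm1, Lcn2 and Pdk4 have their highest value at 8 h while Rgs2, Spsb1 and Nfil3 are highest at 2 h, Gas1 and Irf1 return towards 0, and the AtT-20 column is near 0 for most genes but reaches 1.79 for Sgk1.

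The last comparison asked whether the 2 h change differed between 3134 and AtT-20 cells, which share no array. The test of the difference passed for 151 genes (1.52%), 105 with a change above that of AtT-20 cells (1.06%) and 46 with a change below it (0.464%). Leaving out 1 array gave 73 to 111 genes, and fitting without the run as a block gave 26. Within AtT-20 cells 32 genes passed at 2 h (0.323%), 28 higher (0.282%) and 4 lower (0.0403%). Of the 194 genes higher in 3134 cells the difference passed for 96, and of the 104 lower genes for 26, in each case in the direction of the change in 3134 cells; these genes were chosen for their change in 3134 cells, so the counts are a description. The median change of the 194 genes was 1.03 in 3134 cells and 0.07 in AtT-20 cells, and that of the 104 genes was -0.81 in 3134 cells and -0.12 in AtT-20 cells. In AtT-20 cells 56 of the 194 and 38 of the 104 genes were below the threshold at both times, where no change could be measured.

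Orm1 had the largest difference, with a change of 3.67 in 3134 cells and -0.69 in AtT-20 cells (difference 4.36 ± 0.31, SE, adjusted p = 2.51e-05), but its mean level in AtT-20 cells was 4.14 at 2 h and 4.82 at 0 h, below the threshold. Pdk4 (difference 3.56 ± 0.196), Orm2 (2.96 ± 0.349) and Lcn2 (2.78 ± 0.356) were likewise below it in AtT-20 cells. Mt2 was measured in both lines: it changed by 3.58 in 3134 cells and by 0.37 in AtT-20 cells, where its mean level was 10.50 at 2 h and 10.13 at 0 h (difference 3.21 ± 0.254, adjusted p = 4.87e-05). Dusp4 and Gas1 had opposite signs in the lines. Dusp4 changed by -1.64 in 3134 cells and 0.79 in AtT-20 cells (difference -2.44 ± 0.206, adjusted p = 7.63e-05), and its change within AtT-20 cells passed as well (adjusted p = 0.0464). Gas1 changed by -1.63 in 3134 cells and 0.61 in AtT-20 cells (difference -2.24 ± 0.195, adjusted p = 8.93e-05). Its change within AtT-20 cells did not pass (adjusted p = 0.137), so a rise there was not shown. Its mean level there was 7.08 at 2 h and 6.47 at 0 h, the latter below the threshold. The chemokine genes Ccl2, Cxcl5 and Cxcl3 were below the threshold in AtT-20 cells, with differences of -3.26, -2.78 and -2.63. The difference for Ccl2 (adjusted p = 0.0425) failed in 6 of the 8 fits that left out 1 array, all but those without the 2 h array of run 2 in 3134 cells and without the 0 h array of run 2 in AtT-20 cells.

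Several of the general hormone targets changed in both lines. Sesn1 changed by 1.75 in 3134 cells and 1.75 in AtT-20 cells (difference 0.00 ± 0.206, adjusted p = 0.997). Klf15 changed by 1.18 in 3134 cells and 1.34 in AtT-20 cells (difference -0.16 ± 0.315, adjusted p = 0.972). Sgk1 changed by 2.53 in 3134 cells and 1.79 in AtT-20 cells (difference 0.74 ± 0.249, adjusted p = 0.286). A p that misses the threshold does not show that these changes were equal. Per1, by contrast, changed by 2.69 in 3134 cells and 1.32 in AtT-20 cells, and this difference passed (1.36 ± 0.185, adjusted p = 0.00239). Fkbp5 changed by 2.66 in 3134 cells and 0.70 in AtT-20 cells (difference 1.96 ± 0.197, adjusted p = 0.000218) from mean levels at 0 h of 9.65 in 3134 cells and 9.67 in AtT-20 cells. Tsc22d3 changed by 2.50 in 3134 cells and 0.77 in AtT-20 cells (difference 1.74 ± 0.279, adjusted p = 0.00759), and this difference failed without the 2 h array of run 2 in 3134 cells or of run 1 in AtT-20 cells. The receptor gene Nr3c1 had a mean level of 9.77 at 2 h and 10.43 at 0 h in 3134 cells, and of 8.68 at 2 h and 8.93 at 0 h in AtT-20 cells.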

How the data were processed

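Exon probesets carry 1 deposited log2 value for each array. Per the submitters' processing notes, RMA and Affymetrix Expression Console made these values, with settings and versions not given in the sources used here. Of 228090 probesets, the platform annotation names 1 gene symbol for 207232, several for 3882 and none for 16976, and the first kind was used. Symbols were updated through RefSeq names (GRCm38.p6). The deposited medians of the 3134 arrays ran from 7.83 to 8.14 in run 1 and from 6.76 to 7.20 in run 2, so all 15 arrays were quantile normalized. The value of a gene is the median over its probesets (at least 3, median 13). A gene was tested if its highest group mean reached the 40th percentile of all values. No array pair correlated above 0.985, and none was taken for a repeat of another.

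Group means of line and time were fitted to all 15 arrays, with run within line as a block, by lmFit and eBayes of limma 3.58.1, whose moderated test is 2-sided, with 5 residual degrees of freedom, in R 4.3.3. Benjamini-Hochberg adjustment ran over all 9919 genes at 0.05, and the fit was tested on simulated data. The rule for these arrays pairs them by run. Deviations from the group means correlated at 0.491 to 0.569 across genes in the 6 pairs of 3134 groups. The text names the 15 largest rises and falls that passed and had the same direction in both runs, up to 5 members of each of 33 lists with the smallest p, the 5 largest each way in the other comparisons, and always Nr3c1, Fkbp5, Per1 and Tsc22d3. The arrays, lists and tests were chosen with earlier results of these data known. Alternatives were the fit without the block, the deposited scale, median-centred arrays, other filters, the mean over probesets, fewer arrays, a variance trend and leaving out each array. Promoter windows are those of RefSeq. Motifs were searched as patterns with free positions, and the letters of the 2 longest are not printed here.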

Additional observations from a re-analysis of the deposited data

Results flagged for a closer look

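The responses of the 2 lines differed at 2 h for 151 genes by the test of the difference itself, and the named ones are listed here as values. The response of 3134 cells minus that of AtT-20 cells (log2) was 4.36 for Orm1, 3.56 for Pdk4, 3.21 for Mt2, 2.96 for Orm2 and 2.78 for Lcn2. It was 1.96 for Fkbp5, 1.74 for Tsc22d3 and 1.36 for Per1. It was -3.26 for Ccl2, -2.78 for Cxcl5, -2.63 for Cxcl3, -2.44 for Dusp4 and -2.24 for Gas1. Mt2, Fkbp5, Tsc22d3, Per1 and Dusp4 were above the threshold level at both times in both lines, while Orm1, Orm2, Lcn2, Pdk4, Ccl2, Cxcl5 and Cxcl3 were below it in AtT-20 cells. Gas1 was below it in AtT-20 cells at 0 h and above it there at 2 h. Groups of 2 arrays are too small for a search for arrays far from the others of their group.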

How the results depend on the processing

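None of the 93 named genes called at 2 h changed sign under the alternatives run for them, while the median changes of 16 of 33 lists did, each at most 0.13 in size as reported. The 298 genes of 2 h against 0 h became 122 when the run was not used as a block for the pairing (94 higher and 28 lower, all among the 298), 179 on the deposited scale (119 higher and 60 lower), 194 without the filter on dim genes, 488 with the mean over probesets and 155 to 167 without 1 array. The 151 genes that differed between the lines became 26 without the block, 85 on the deposited scale, 71 without the filter and 73 to 111 without 1 array. The 198 genes of 8 h against 2 h became 9 without the block, 340 with centred arrays (168 higher and 172 lower), 65 without the filter and 20 to 128 without 1 array. On the deposited scale they were 260, of which 29 were higher and 231 lower, with a median of all genes of -0.31. The 2 genes of 4 h against 2 h became 0 without the block or the filter, 23 on the deposited scale (median of all genes -0.24), 19 with centred arrays and 0 to 1 without 1 array. The causes of these moves were not tested. Of 93 named genes called at 2 h, 47 kept the call in every setting in which they were tested. Among these, Pparg was tested in 12 of 14 settings and Artn, Lbp and Slc10a6 in 13. Calls of other genes were lost without some array, and 36 genes lost theirs without the block. The files give no background measure per array, and changes of genes near the threshold level are limited by it.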

Other observations

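Some further genes changed at 2 h, of which Trib1 stands on a list as well. They were picked after their values were seen, so the counts below describe them and carry no test of a group. No alternative settings were run for them. Adaptors and kinases of TNF receptor signalling gave 6 lower and no higher genes among 11 tested, with a median of -0.63. Among all genes tested, 1.05% were lower and 1.96% higher. The kinase gene Ripk2 had 9.01 and 8.85 at 2 h, against 10.16 and 9.91 at 0 h (change -1.10 ± 0.151, adjusted p = 0.000994), and Traf5 had 6.71 and 6.35 at 2 h, against 7.55 and 7.31 at 0 h (change -0.90 ± 0.147, adjusted p = 0.00386). Traf1, Traf2, Traf3 and Tnfrsf1b were lower by smaller amounts, with changes of -0.63, -0.63, -0.65 and -0.69. Traf1 lay below the threshold on both 2 h arrays and on the 0 h array of run 2. Traf5 lay below it on the 2 h array of run 2. Background limits the measured size of the fall in both genes. The polo-like kinase gene Plk3 was higher (change 0.80 ± 0.181, adjusted p = 0.0306) and Plk2 lower (change -1.11 ± 0.153, adjusted p = 0.00101).

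The endothelin gene Edn1, whose product constricts vessels, had 7.55 and 7.78 at 2 h, against 5.51 and 5.51 at 0 h (change 2.15 ± 0.255, adjusted p = 0.000305), starting below the threshold. Sphk1, which makes sphingosine phosphate, had 10.67 and 10.93 at 2 h, against 9.07 and 8.34 at 0 h (change 2.10 ± 0.247, adjusted p = 0.000286). Its relative Sphk2 had 8.05 and 8.02 at 2 h, against 7.84 and 7.88 at 0 h, and did not pass (adjusted p = 0.86). The kinase gene Sik1 had 9.43 and 9.53 at 2 h, against 7.60 and 7.57 at 0 h (change 1.90 ± 0.158, adjusted p = 1.74e-05). The transcription factor gene Sox4 rose by 1.84 on the log2 scale (adjusted p = 3.11e-06) and the RNA editing enzyme gene Apobec1 by 1.95 (adjusted p = 2.2e-05). In Edn1, Sphk1, Sik1, Sox4 and Apobec1 both 2 h arrays lay above both 0 h arrays, as they did for 14.2% of all genes tested. The pseudokinase genes Trib1 (change 0.87 ± 0.144, adjusted p = 0.00402) and Trib2 (change 1.06 ± 0.175, adjusted p = 0.00392) were both higher, while Trib3 did not pass (adjusted p = 0.901). Trib2 started below the threshold, at 6.57 and 6.40 at 0 h.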
